A study of Sus scrofa with 12 samples.

Results

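The genes described here are 45 listed as complement and coagulation factors. FETUB, the gene of fetuin B, is on the list but was counted in neither cascade. The symbols were matched exactly to the gene names of the liver mRNA files, which hold 31694 genes. A gene of that name was found for 38 of the 45. The other 7 (C1S, CFD, C8G, C9, F11, F10 and TFPI) were not analysed here. The liver was taken from 3 Jinhua (JH) and 3 Landrace (LD) pigs, all uncastrated males of 70 days of age, with no treatment named, and each pig gave 1 mRNA library (JH1 to JH3, LD1 to LD3). JH is a fatty local breed from China and LD a lean commercial breed. How the pigs of each breed were housed and fed is not given in the sources used here, so breed and rearing cannot be told apart. The comparison asks which of these genes differ in liver mRNA between the breeds.

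Complement and coagulation are cascades of plasma proteins in which each protease cuts and activates the next. Complement starts by the classical, the lectin or the alternative pathway, all of which converge on cleavage of C3 and end in the membrane attack complex, a pore built into the target cell. Coagulation starts by contact activation or by tissue factor, runs through factor X to thrombin and turns fibrinogen into fibrin, which plasmin dissolves again. Hepatocytes make and secrete most of these proteins, their inhibitors included, and the liver is the main source of them in plasma.

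The expression of FETUB and HRG was far lower in JH than in LD, and most other members were lower in JH by a smaller amount that did not pass the test. Expression was measured as RPKM (the reads of a gene per kilobase of its length, scaled to the reads of the library) and compared with limma on log2(RPKM + 0.1), a scale that understates the change of low genes. Fold changes are JH over LD. A gene was tested when its RPKM was at least 0.5 in at least 3 libraries, and it was called when p, adjusted after Benjamini and Hochberg over all 12993 tested genes, was below 0.05 and the absolute log2 fold change was above 1. Of the 38 members found, 33 were tested and 5 (C1R, F12, F13B, PROS1 and SERPINF2) were listed at 0 in all 6 libraries. APOB and CD163, genes used by hepatocytes and by liver macrophages, were listed at 0 as well. None of the members with a value above 0 fell below the filter.

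Of the 33 tested members, 2 were called lower in JH, where 1.36% of all tested genes were, and 0 were called higher in JH, where 1.02% of all tested genes were. The log2 fold change was below 0 in 31 of the 33 members, against 47.1% of all tested genes. Unadjusted p was below 0.05 in the direction of lower expression in JH for 12 members (9.51% of all tested genes) and in the direction of higher expression for 0 (8.35% of all tested genes). The 3 JH values all lay below the 3 LD values in 15 members (12.5% of all tested genes). In 0 members did they all lie above (10.8% of all tested genes), and in 18 the breeds overlapped. The median log2 fold change of the members was -0.49, and -0.47 without HRG and FETUB, beside 0.037 for all tested genes. The 18 complement members had a median of -0.46 and the 14 members of coagulation and fibrinolysis a median of -0.54. FETUB is in neither group, and of the genes in them HRG alone was called. When each library was left out in turn, between 28 and 32 of the 33 members had a log2 fold change below 0 (the 32 without JH2 included CFP, above 0 otherwise) and the median lay between -0.63 and -0.40. The replicates were separate pigs, but with 3 per breed an exact permutation test of a single gene cannot give a p below 0.1.

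**Figure D1:**
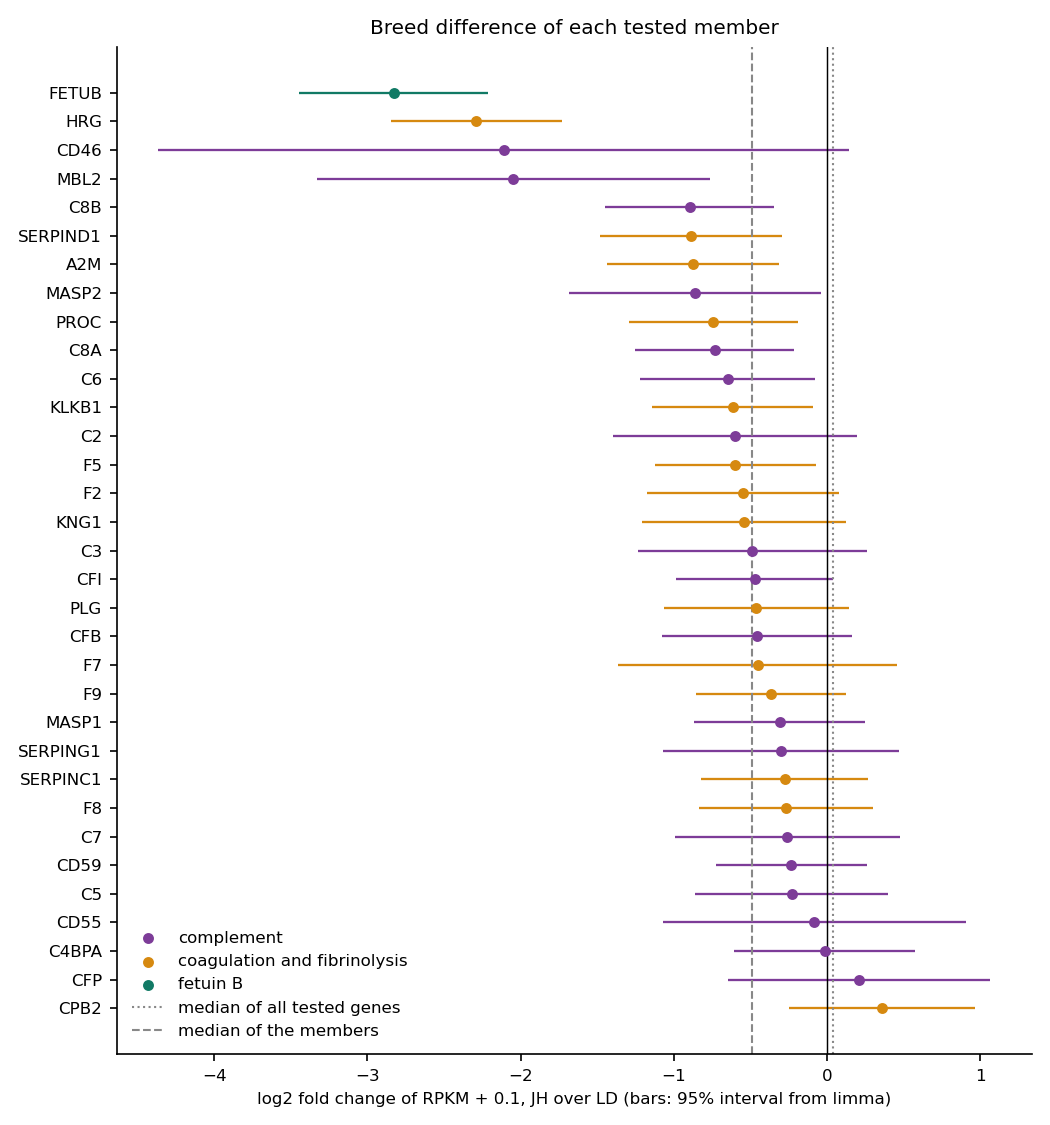
Log2 fold change of RPKM + 0.1, JH over LD, of each of the 33 tested members (points), with 95% intervals from limma (bars). Points are coloured by cascade, with FETUB in a colour of its own. FETUB and HRG lie at -2.83 and -2.29 with narrow intervals, CPB2 and CFP are the 2 points above 0, and the dashed line at -0.49 marks the median of the members beside the dotted line at 0.037 for all tested genes.

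The RPKM values had been divided by totals of 5744908 to 7914515 reads per library, recovered from the values themselves, and between 16080 and 17078 genes were above 0 in a library. RN18S, the gene of an 18S ribosomal RNA, ranged from 1570 to 62257 RPKM and was highest in JH3 and next highest in LD3. Of 13 hepatocyte markers 11 were tested and 0 were called, with a median log2 fold change of -0.40, and their summed RPKM was 62040 to 74650 in JH and 77910 to 91610 in LD. The largest single part of the sum was ALB, the gene of serum albumin, with a log2 fold change of -0.67 (adjusted p = 0.258, limma). Of the 11 tested, 8 had a log2 fold change below 0 and 3 (APOA1, TAT and ASGR1) above it, and APOA1 was higher in all JH pigs (log2 fold change 0.90, adjusted p = 0.203, limma). Of 12 markers of stellate cells and fibroblasts, 10 were tested and 4 (COL1A1, COL1A2, COL3A1 and LRAT) were called lower in JH. Their summed RPKM was 87.1 to 105.6 in JH and 201.8 to 399.2 in LD. Of the markers of bile duct cells and of red cells, 3 of 6 each were tested. EPCAM and HBB were called lower in JH, and the summed RPKM was 6.99 to 15.5 in JH and 14.2 to 34.5 in LD for the bile duct list, and 92.2 to 124.0 in JH and 214.8 to 397.7 in LD for the red cell list. No gene was called among 9 tested of 12 macrophage markers, 11 of 14 endothelial markers, 11 of 12 lymphocyte and neutrophil markers and 1 of 6 platelet markers, of which PF4 and PPBP were listed at 0. The summed RPKM of the macrophage list was 1033 to 2227 in JH and 1534 to 1766 in LD. That of the endothelial list was 365.8 to 533.4 in JH and 366.3 to 455.6 in LD. It rests mostly on CLEC4G and FCN2. Of the 11 tested endothelial markers, 4 (PECAM1, KDR, VWF and ERG) had JH values below all LD values (12.5% of all tested genes). PECAM1 had a log2 fold change of -0.81 and KDR one of -0.91 (adjusted p = 0.0988 and 0.0811, limma). In 1, FCN2, the JH values lay above all LD values (10.8% of all tested genes), with a log2 fold change of 0.89 (adjusted p = 0.142, limma). The other 6 overlapped between the breeds. The lymphocyte and neutrophil list summed to 35.2 to 117.9 in JH, highest in JH2, and to 48.3 to 82.3 in LD, and the platelet list to 2.20 to 2.68 in JH and 1.22 to 1.90 in LD. The part of these differences in the results on the members was not tested. In whole liver, fewer cells of a type and less RNA per cell cannot be told apart.

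FETUB encodes fetuin B, a plasma protein of the cystatin superfamily and an inhibitor of the zinc protease ovastacin. Its expression was 118.5, 129.2 and 86.8 RPKM in JH1 to JH3 and 733.4, 1010 and 644.7 RPKM in LD1 to LD3. The highest JH pig lay far below the lowest LD pig. The mean was 111.5 ± 22.1 RPKM (SD, n = 3) in JH and 795.9 ± 190.4 RPKM (SD, n = 3) in LD, which was 7.14 times as high. The log2 fold change was -2.83 (SE, the standard error, 0.27, 95% interval -3.45 to -2.21, adjusted p = 0.00203 from limma), and FETUB ranked 13 by p among all tested genes. The values stood for 946 to 1412 reads in a JH library and 7189 to 11232 reads in an LD library, so counting error was small beside the spread between pigs.

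HRG encodes histidine-rich glycoprotein, an abundant plasma protein that binds heparin, plasminogen and fibrinogen. The HRG values were 1210.02, 898.6 and 969.1 RPKM in JH1 to JH3, and 4739, 4641 and 5591 RPKM in LD1 to LD3. Again the breeds did not overlap, and the pigs within each breed lay close together. Mean expression was 1025.9 ± 163.3 RPKM (SD, n = 3) in JH and 4990.4 ± 522.5 RPKM (SD, n = 3) in LD, a ratio of LD to JH of 4.86. With a log2 fold change of -2.29 (SE 0.25, 95% interval -2.85 to -1.73, adjusted p = 0.00352 from limma), HRG ranked 22 by p among all tested genes. In LD it was the most highly expressed of the 33 members per kilobase, and in JH it ranked 7. It made up 16.8% to 21.5% of the summed RPKM of the members in the LD libraries and 5.05% to 8.33% in the JH libraries. That sum itself was 22660 to 27600 RPKM in LD and 13640 to 17780 RPKM in JH. Without HRG and FETUB the sum was 17190 to 21940 RPKM in LD and 12580 to 16760 RPKM in JH, so the breeds still did not overlap.

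RefSeq places FETUB, HRG and KNG1 directly after each other in assembly Sscrofa11.1. KNG1 encodes kininogen, the precursor of bradykinin and a cofactor of contact activation, and like HRG and fetuin B it carries cystatin-type domains. Its values were 443.9, 287.2 and 534.6 RPKM in JH1 to JH3 and 662.5, 482.2 and 660.5 RPKM in LD1 to LD3. The highest JH pig exceeded the lowest LD pig. Its log2 fold change of -0.54 (SE 0.30, 95% interval -1.21 to 0.12) did not pass the test (adjusted p = 0.376, limma). The log2 ratio of HRG to KNG1 within a library was 1.45, 1.65 and 0.86 in JH1 to JH3 and 2.84, 3.27 and 3.08 in LD1 to LD3. All 3 JH ratios were below all 3 LD ratios, with a difference of the means of -1.75 (p = 0.1, two-sided exact permutation test, the smallest p possible, and 0.3 after Benjamini-Hochberg adjustment over the 6 ratios compared). FETUB relative to KNG1 gave a difference of -2.29 with the same p values, and its JH and LD ratios did not overlap either. For FETUB relative to HRG the difference was -0.54, with SDs of 0.36 in JH and 0.46 in LD. The ratios of the breeds overlapped (p = 0.2, exact permutation test, adjusted p = 0.4).

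Of the flanking protein-coding genes in the same order, 5 were tested and 0 were called. On the side of FETUB lie CRYGS, TBCCD1, DNAJB11 and AHSG, of which AHSG, the fetuin A gene next to FETUB, was not analysed here. CRYGS had a log2 fold change of 0.41, TBCCD1 one of -0.042 and DNAJB11 one of 0.30 (adjusted p = 0.696, 0.954 and 0.63, limma). On the side of KNG1 lie EIF4A2, RFC4, ADIPOQ and ST6GAL1. EIF4A2 had a log2 fold change of 0.26 and RFC4 one of 0.70 (adjusted p = 0.615 and 0.303, limma), ADIPOQ was below the filter and ST6GAL1 was listed at 0. All 5 tested flanking genes overlapped between the breeds, as did most tested genes. Of all tested genes, 12.5% had JH values all below the LD values and 10.8% all above. No RefSeq gene overlapped FETUB, HRG or KNG1 in that assembly. The files use an earlier build, so only the order of the genes was taken from it.

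**Figure D2:**
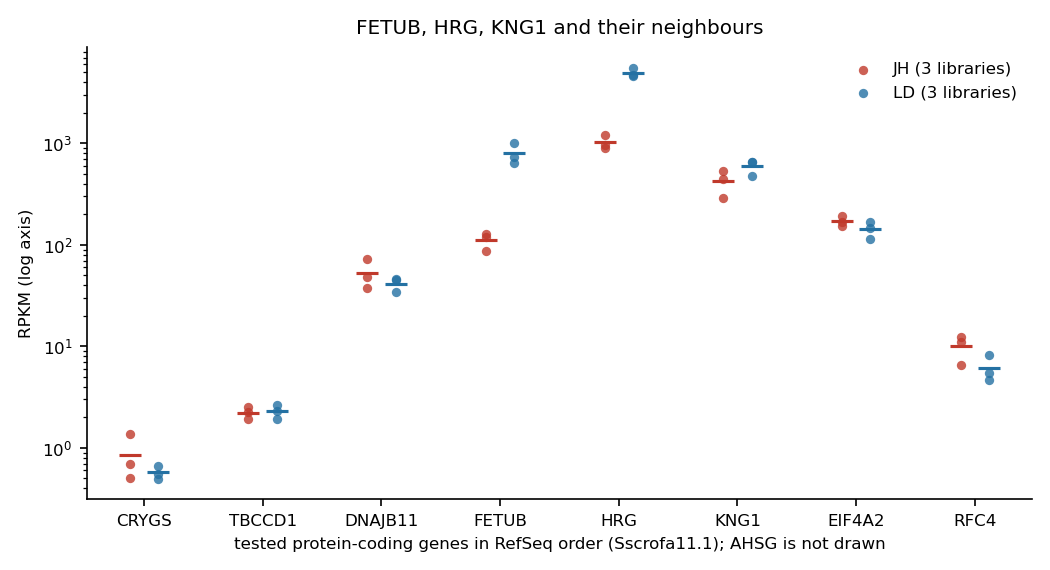
RPKM (log axis) of the tested protein-coding genes from CRYGS to RFC4 in RefSeq order, with points for the 3 JH (red) and 3 LD (blue) libraries and bars for the breed means. FETUB and HRG separate the breeds, at means of 111.5 against 795.9 RPKM and 1025.9 against 4990.4 RPKM, while KNG1 and the 5 flanking genes overlap.

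Among the other genes of fibrinolysis, A2M encodes alpha-2-macroglobulin, a broad protease inhibitor of plasma. The A2M values were 480.9, 686.9 and 637.6 RPKM in JH1 to JH3 and 1019, 1226 and 1040.28 RPKM in LD1 to LD3, with no overlap. With a log2 fold change of -0.88 (SE 0.25) it did not reach the threshold (adjusted p = 0.114, limma). PLG, the gene of plasminogen, ranged from 1125 to 1631 RPKM in JH and from 1525 to 2193 RPKM in LD, and CPB2, the gene of the fibrinolysis inhibitor TAFI, from 961.8 to 1201 RPKM in JH and from 637.1 to 1066 RPKM in LD. PLG had a log2 fold change of -0.46 (adjusted p = 0.406, limma), and it overlaps SLC22A3 in Sscrofa11.1, which reached 110.1 RPKM. CPB2 had the highest log2 fold change of the members, 0.36 (95% interval -0.25 to 0.96, adjusted p = 0.532, limma). Of the 4 tested genes of the group, HRG included, 3 had a log2 fold change below 0, and SERPINF2, the antiplasmin gene, was listed at 0.

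All 3 tested anticoagulant genes had JH values below all LD values (12.5% of all tested genes), and 0 were called in the reported fit. SERPINC1, the gene of antithrombin and the highest of the group, was at 1402, 1420.23 and 1083 RPKM in JH1 to JH3 and at 1471, 1670 and 1559 RPKM in LD1 to LD3. The breeds were apart by little, and the log2 fold change was -0.28 (adjusted p = 0.59, limma). SERPIND1, the gene of heparin cofactor II, was at 431.1 ± 67.2 RPKM (SD, n = 3) in JH and 805.7 ± 190.4 RPKM (SD, n = 3) in LD. PROC, the gene of protein C, was at 658.1 ± 83.5 RPKM (SD, n = 3) in JH and 1102 ± 165.1 RPKM (SD, n = 3) in LD. Their log2 fold changes were -0.89 (adjusted p = 0.126) and -0.74 (adjusted p = 0.163, limma). Under quantile normalization the adjusted p of both fell below 0.05, to 0.0408 for SERPIND1, which was then called with a log2 fold change of -1.06, and to 0.046 for PROC. SERPIND1 overlaps PI4KA in Sscrofa11.1, which reached 9.47 RPKM.

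Of the contact and intrinsic factors, 4 of 6 were tested and 0 were called. KLKB1, the gene of plasma prekallikrein, ranged from 138.8 to 159.7 RPKM in JH and from 196.3 to 266.3 RPKM in LD. F9, the gene of the vitamin K dependent factor IX, varied little, from 302.2 to 315.0 RPKM in JH and from 375.0 to 413.6 RPKM in LD. F8, the gene of its cofactor factor VIII, which in liver is made mainly by endothelial cells, was at 2.34 to 3.16 RPKM in JH and 3.31 to 3.61 RPKM in LD. In these 3 genes the JH values lay below all LD values (12.5% of all tested genes). Their log2 fold changes were -0.62, -0.37 and -0.27 (adjusted p = 0.207, 0.421 and 0.619, limma).

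Of the extrinsic and common factors, 3 of 5 were tested and 0 were called. F2, the gene of prothrombin, was at 814.5, 985.7 and 755.5 RPKM in JH1 to JH3 and at 970.3, 1668 and 1166 RPKM in LD1 to LD3. JH2 lay above LD1, and the log2 fold change was -0.55 (SE 0.28, adjusted p = 0.345, limma). F5, the gene of factor V, the cofactor that speeds thrombin formation, was at 37.6 to 51.1 RPKM in JH and 59.0 to 68.1 RPKM in LD, with no overlap and a log2 fold change of -0.60 (adjusted p = 0.22, limma). F7, the gene of factor VII, the partner of tissue factor, was at 72.3, 75.2 and 27.3 RPKM in JH1 to JH3 and at 62.5, 98.3 and 62.2 RPKM in LD1 to LD3. Its log2 fold change of -0.45 rested on JH3 and was 0.023 without that library.

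The lectin pathway starts with mannose-binding lectin, which recognises sugars on microbes. MBL2, the gene of a mannose-binding lectin, was at 149.9, 66.9 and 45.9 RPKM in JH1 to JH3 and at 462.9, 134.4 and 524.5 RPKM in LD1 to LD3. LD2 lay far below the other LD pigs and below JH1. The mean was 87.6 ± 55.0 RPKM (SD, n = 3) in JH and 374.0 ± 209.7 RPKM (SD, n = 3) in LD, and the reads behind the values ran from 256 to 621 in JH and from 765 to 2993 in LD. The log2 fold change of -2.05 (SE 0.57, 95% interval -3.33 to -0.76) was among the largest of the members but did not pass the test (adjusted p = 0.107, limma). Without LD2 it was -2.67 (adjusted p = 0.054, limma). MASP1 and MASP2 encode the proteases that mannose-binding lectin activates. MASP1 was at 7.02 to 7.70 RPKM in JH and 7.43 to 11.3 RPKM in LD, and MASP2 at 6.36 to 15.8 RPKM in JH and 12.8 to 22.4 RPKM in LD. Their log2 fold changes were -0.31 and -0.86 (adjusted p = 0.556 and 0.259, limma), and both overlapped between the breeds. MASP2 overlaps TARDBP in Sscrofa11.1, which reached 31.6 RPKM, and whether the counting used strand is not given in the sources used here.

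Of the classical pathway only C2 was tested among the members. C2, the protease of the classical and lectin C3 convertase, was at 198.7, 329.3 and 135.4 RPKM in JH1 to JH3 and at 251.1, 413.4 and 297.2 RPKM in LD1 to LD3. Both breeds varied widely, and the log2 fold change was -0.60 (SE 0.35, adjusted p = 0.416, limma). CFB, which takes the place of C2 in the alternative pathway and lies next to it in Sscrofa11.1, was at 1085, 1271 and 846.7 RPKM in JH1 to JH3 and at 1135, 1671 and 1590.29 RPKM in LD1 to LD3. JH2 lay above LD1, and the log2 fold change was -0.46 (adjusted p = 0.427, limma). The log2 ratio of C2 to CFB differed by -0.14 between the breeds (p = 0.7, exact permutation test, adjusted p = 0.8). CFP, the gene of properdin, which stabilises the alternative convertase and is made by blood cells, was at 29.8, 75.9 and 26.6 RPKM in JH1 to JH3 and at 34.9, 33.0 and 33.7 RPKM in LD1 to LD3. JH2 was the high library, and in it the lymphocyte markers CD3E and CD2 were also at their highest, 14.02 and 20.7 RPKM against at most 5.55 and 7.90 RPKM in the other libraries. Of the 11 tested lymphocyte and neutrophil markers 7 were highest in JH2, 1 in LD1 and 3, the neutrophil genes S100A8, S100A9 and S100A12, in LD3, and of the 9 tested macrophage markers 5 were highest in JH2. CFP had a log2 fold change of 0.21 (adjusted p = 0.812, limma) and -0.26 without JH2.

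C3, the protein on which the pathways converge, had the highest mean of the members in JH and the next after HRG in LD. It was at 1567, 2829 and 2149 RPKM in JH1 to JH3 and at 2085, 3986 and 3153 RPKM in LD1 to LD3. The pigs within a breed differed by more than the breed means did, and the log2 fold change was -0.49 (SE 0.33, 95% interval -1.24 to 0.26, adjusted p = 0.484, limma). C5, which starts the membrane attack complex, was at 95.3 to 179.0 RPKM in JH and 148.8 to 170.2 RPKM in LD, with a log2 fold change of -0.23 (adjusted p = 0.713, limma) that was 0.030 without JH1.

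In the membrane attack complex, 3 of the 4 tested genes had JH values below all LD values (12.5% of all tested genes), and 0 were called. C8A and C8B encode the alpha and beta chains of C8 and lie next to each other in Sscrofa11.1. C8A was at 371.2, 438.1 and 356.8 RPKM in JH1 to JH3 and at 584.5, 675.2 and 676.1 RPKM in LD1 to LD3. C8B was at 256.8 ± 39.6 RPKM (SD, n = 3) in JH and 477.6 ± 71.9 RPKM (SD, n = 3) in LD. In both genes each pig of a breed lay clear of the other breed, with log2 fold changes of -0.73 (SE 0.23, adjusted p = 0.143, limma) for C8A and -0.90 (SE 0.25, adjusted p = 0.103, limma) for C8B. The log2 ratio of C8B to C8A differed by -0.16 between the breeds (p = 0.5, exact permutation test, adjusted p = 0.75), a difference within the spread of the pigs. C6 was at 147.3 to 224.7 RPKM in JH and 247.3 to 323.9 RPKM in LD, with a log2 fold change of -0.65 (adjusted p = 0.224, limma). C7 overlapped, at 27.8 to 37.9 RPKM in JH and 24.2 to 52.7 RPKM in LD, with a log2 fold change of -0.26 (adjusted p = 0.726, limma).

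The soluble inhibitors of complement were tested in full and 0 of 3 were called. SERPING1, the gene of C1 inhibitor, which blocks C1 and plasma kallikrein, was at 1385, 2392 and 1030.25 RPKM in JH1 to JH3 and at 1526, 2236 and 1868 RPKM in LD1 to LD3. JH2 was the highest library of all, and the log2 fold change was -0.30 (adjusted p = 0.69, limma). CFI, the gene of the protease that destroys C3b and C4b, was at 566.2 to 694.3 RPKM in JH and 839.3 to 898.8 RPKM in LD, with no overlap and a log2 fold change of -0.47 (adjusted p = 0.32, limma). C4BPA, the alpha chain of the C4b-binding protein, was at 76.1 to 113.5 RPKM in JH and 73.8 to 108.5 RPKM in LD. For this gene the log2 fold change of -0.014 (95% interval -0.60 to 0.58) had either sign depending on the library left out.

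The membrane regulators, which protect the body's own cells from complement, had low RPKM values here. CD59, which blocks the membrane attack complex, was at 13.5, 13.6 and 12.4 RPKM in JH1 to JH3 and at 16.6, 14.7 and 15.1 RPKM in LD1 to LD3. The breeds did not overlap, and the log2 fold change was -0.23 (adjusted p = 0.617, limma). CD46 and CD55 stood for few reads. The length recovered for CD46 was 301 bp, against 1937 bp for CD55, and a pseudogene overlaps CD46 in Sscrofa11.1. CD46 had 4, 2 and 0 reads in JH1 to JH3 and 3, 6 and 11 reads in LD1 to LD3, so its log2 fold change of -2.11 (SE 1.00, adjusted p = 0.312, limma) was not distinguishable from 0 at this depth, and it was -0.80 without JH3. CD55 was at 0.54 to 0.93 RPKM in JH and 0.58 to 1.17 RPKM in LD, with a log2 fold change of -0.084 (adjusted p = 0.941, limma).

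**Figure D3:**
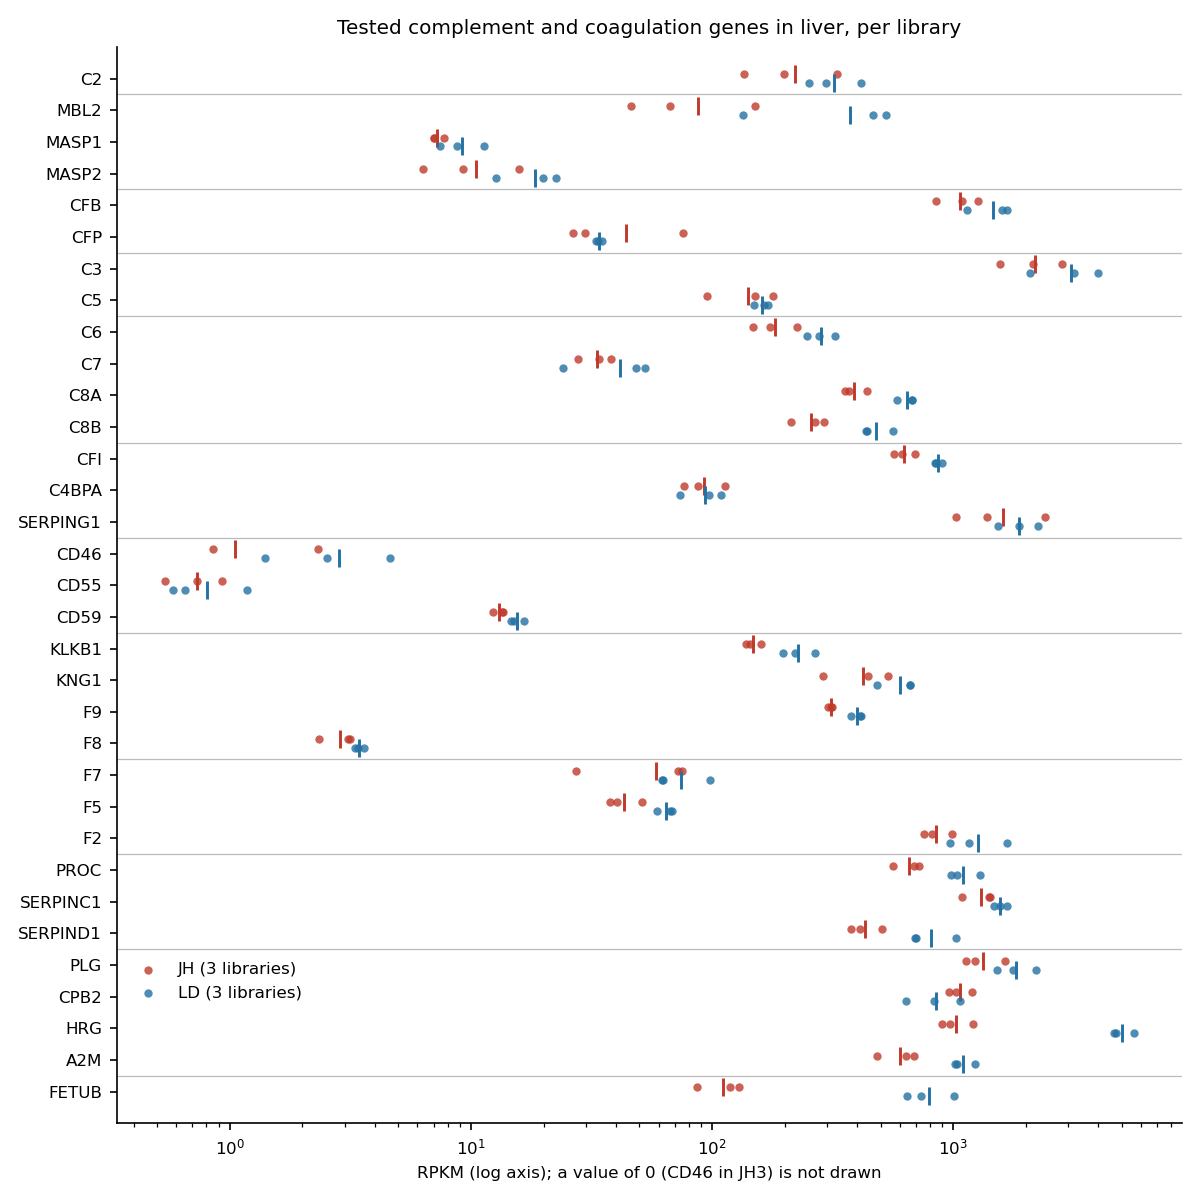
RPKM (log axis) of the 33 tested members in each JH (red) and LD (blue) library, ordered by role with grey lines between the roles and short bars at the breed means. HRG and FETUB show the widest gaps between the breeds, MBL2 and CD46 show wide spreads within them, and most other members sit slightly lower in JH.

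The rest of these pathways was read from lists of other genes. Of 32 further complement genes, 22 were tested, 1 was called lower in JH and 0 were called higher, with a median log2 fold change of -0.38. The gene called was CR1, the complement receptor for C3b and C4b, at 0.30, 1.596 and 0.91 RPKM in JH1 to JH3 and 3.56, 5.04 and 4.48 RPKM in LD1 to LD3. The breeds did not overlap, at 7 to 51 reads in a JH library and 104 to 164 reads in an LD library. Its log2 fold change was -2.33 (SE 0.49, adjusted p = 0.0465, limma). The call did not hold with a pseudocount of 0.01 (adjusted p = 0.0647) or with no filter on low values (adjusted p = 0.087), and it was lost without JH1, JH3, LD1, LD2 or LD3 (adjusted p = 0.0595 to 0.168). Of 38 further genes of coagulation and fibrinolysis, 27 were tested and 0 were called by limma, 4 being at an unadjusted p below 0.05 lower in JH and 1 higher, with a median log2 fold change of -0.16. FGA, FGB and FGG, the fibrinogen genes, chosen here after their values were seen, had log2 fold changes of -0.12, -0.20 and -0.026 (adjusted p = 0.824, 0.732 and 0.971, limma).

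The genes that modify, export or regulate these factors showed 0 calls by limma. Of the vitamin K cycle and export list all 9 genes were tested, with a median log2 fold change of 0.040, 0 at an unadjusted p below 0.05 lower in JH and 1 higher. Of 22 regulators of hepatic transcription and of the acute phase response, 19 were tested. Their median log2 fold change was -0.24, the range was -1.38 to 0.79, and 3 were at an unadjusted p below 0.05 lower in JH and 1 higher. The smallest adjusted p among them, 0.121, was that of IL6R, the interleukin-6 receptor gene, at 4.07 to 7.14 RPKM in JH and 8.65 to 11.12 RPKM in LD.

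The smaller shift of the members was seen across libraries and not in a single pig. Each member was expressed as its log2(RPKM + 0.1) minus its mean over the 6 libraries. The median of this deviation over the 33 members was -0.32, -0.078 and -0.38 in JH1 to JH3 and 0.17, 0.35 and 0.27 in LD1 to LD3. All JH medians were below 0 and all LD medians above it. JH2 lay closest to 0, with 12 of 33 members above their own mean, against 4 in JH1, 5 in JH3 and 24 to 30 in the LD libraries. The same median over the tested hepatocyte markers was -0.078, -0.22 and -0.22 in JH1 to JH3 and 0.17, 0.055 and 0.18 in LD1 to LD3, also below 0 in JH and above 0 in LD. Over all tested genes it was 0.14, 0.16 and -0.17 in JH1 to JH3 and 0.072, 0.11 and -0.18 in LD1 to LD3, lowest in JH3 and LD3, the libraries with the most RN18S.

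**Figure D4:**
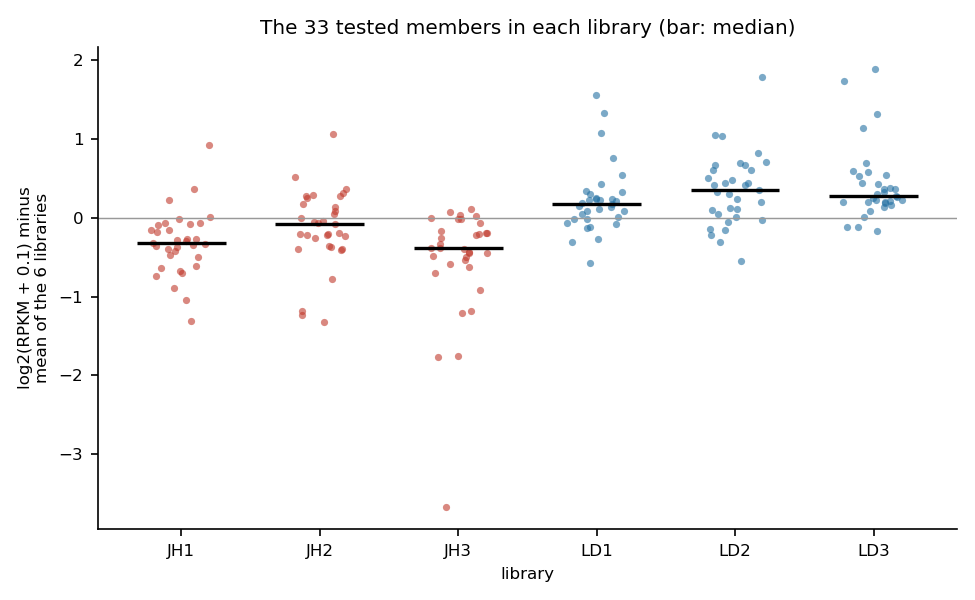
Deviation of each of the 33 tested members from its own mean over the 6 libraries, on the log2(RPKM + 0.1) scale, with 1 point per member and a bar at the median of each library. The JH medians run from -0.38 to -0.078 and the LD medians from 0.17 to 0.35, and the lowest point in JH3 is CD46, which was at 0 reads there.

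HRG and FETUB were called in every alternative that was run. The log2 fold change of HRG lay between -2.41 and -2.20 when a library was left out (adjusted p between 0.00498 and 0.032, limma) and between -2.43 and -2.29 under the other alternatives. That of FETUB lay between -2.97 and -2.64 when a library was left out (adjusted p between 0.00285 and 0.0205, limma) and between -3.00 and -2.82 under the others. KNG1 kept a log2 fold change below 0, between -0.74 and -0.29, and was not called in any of them.

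**Figure D5:**
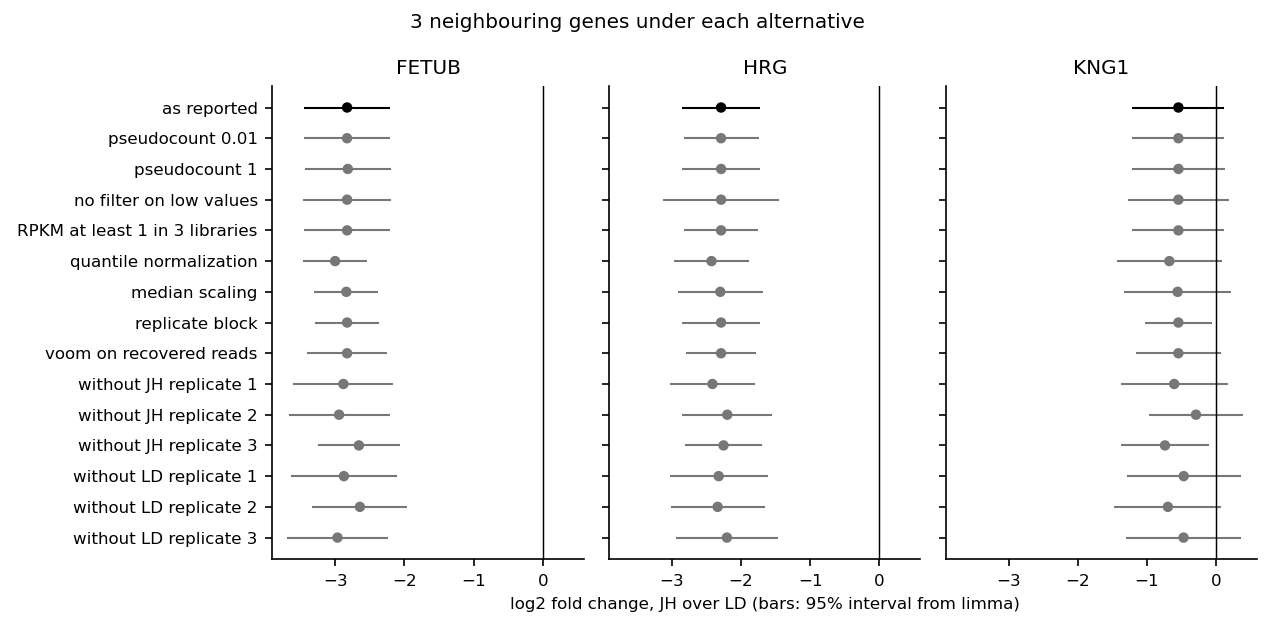
Log2 fold change, JH over LD, of FETUB, HRG and KNG1 in the reported fit (black) and under each alternative (grey), with 95% intervals from limma. FETUB stays between -3.00 and -2.64 and HRG between -2.43 and -2.20, with every interval below 0, while the intervals of KNG1 mostly cross 0.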

How the data were processed

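Total liver RNA was made into mRNA libraries with the NEBNext Ultra kit and read as 50 bp single reads. The authors aligned the reads to an earlier pig genome build with TopHat2 2.0.13 (version from the submitters' processing notes), took gene counts from gfold and turned these into the deposited RPKM, in 1 file per library. Groups came from the sample labels. No unmapped columns were used. Small RNA files were not used here.

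The members and lists were chosen with earlier results of these data known. All members are described. Other pathway genes are named when called, and any further gene was picked after its values were seen. The planned branch for RPKM was followed: log2(RPKM + 0.1) of genes with RPKM of at least 0.5 in 3 libraries was fitted in limma 3.58.1 (R 4.3.3; lmFit, then eBayes with trend), with Benjamini-Hochberg adjustment over 12993 genes, of which 310 were called (133 higher and 177 lower in JH). RPKM depends on each library's composition, so an abundant RNA lowers all other values.

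Whole reads were recovered for 17944 genes (91.5% of those above 0) and for 27 tested members by searching the library totals and gene lengths that make the 6 values whole. On simulated data 98.3% of 5332 resolved genes were exact. Read numbers cover counting error only, since reads are not independent molecules. In simulated data of this comparison with changes of 2 on the log2 scale, limma called 117 of 195 changed genes with 125 calls in all among 12585, and 0 of 12576 when none changed. Each gene was drawn independently there, so the simulation does not cover false calls from effects that the genes of a library share. RefSeq (Sscrofa11.1) gave gene order and overlaps only. Alternatives were other pseudocounts and filters, quantile normalization, median scaling, no fold change limit, the replicate number as a block, voom on recovered reads, and each library left out. JH and LD libraries of the same number had deviations from their breed means that correlated across genes at -0.016, 0.052 and 0.18. No pairing is described in the sources used here, so the replicate number entered only as a block in an alternative. Further tools were Python 3.11.15, numpy 2.4.6, pandas 2.3.3, matplotlib 3.10.9 and scipy 1.17.1.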

Additional observations from a re-analysis of the deposited data

How the results depend on the processing

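The members called lower in JH (2) and higher in JH (0) were the same in number in all alternatives, except for 3 called lower under quantile normalization, where 4 members had an adjusted p below 0.05 (HRG, FETUB, SERPIND1 and PROC) and the median log2 fold change of the members was -0.67. SERPIND1 then passed the limits at -1.06. The genes called over the whole table fell from 310 to 199 with a pseudocount of 0.01 and to 200 with no filter on low values, and lay between 63 and 403 when a library was left out. The pathway and regulator genes called went from 1 (CR1) to 0 with a pseudocount of 0.01 and with no filter, to 2 with voom on recovered reads (CR1 and ITIH2), and lay between 0 and 1 when a library was left out. The replicate block left 253 genes and the same 2 members called, while the genes at an unadjusted p below 0.05 went from 2321 to 2958 (limma). JH1 correlated best with LD2 (0.081) and not with its own number. The highest correlation of all pairs, however, was that of JH3 with LD3 (0.18). Within their breeds, RN18S was highest in JH3 and in LD3 and lowest in JH2 and in LD2. Whether libraries of the same number share a batch was not tested. Of 257 log2 fold changes of members under other alternatives than leaving out a library, 255 kept their direction and side of the threshold, and 1 changed sign, CD55 at 0.13 under quantile normalization. Of 198 values with a library left out, 9 changed sign. These were C5 (0.030 without JH1, lowest -0.42), CFP (-0.26 without JH2, highest 0.49), F7 (0.023 without JH3, lowest -0.71), C4BPA (0.12 without JH1, 0.014 without JH3, 0.026 without LD1 and 0.10 without LD3, lowest -0.17) and CD55 (0.095 without JH1 and 0.19 without LD3). The cause was not tested. CD46 stood for at most 11 reads in a library, at a recovered length of 301 bp, so few reads limit its value. The 6 members without recovered reads were not in the voom fit.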

Other observations

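The values that follow were picked after the data were seen, and none was called in the reported fit. The C1q chains did not move together across the LD libraries, while among the JH pigs each chain was highest in JH2. C1QB, which encodes the B chain, was at 25.7, 37.6 and 26.9 RPKM in JH1 to JH3 and at 34.3, 3.42 and 5.49 RPKM in LD1 to LD3, so LD2 and LD3 stood far below the other 4 libraries. C1QA and C1QC, which encode the other two chains, were at 405.2 to 485.8 RPKM and 434.8 to 498.6 RPKM in LD, with no low library. The log2 fold change of C1QB was 1.76 (standard error 0.70, adjusted p = 0.234, limma), and 2.74 without LD1 (adjusted p = 0.0238), where it passed the limits.

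Among the recognition genes of the lectin pathway, FCN2 stood apart in sign, and the difference from the others was not tested. FCN2, the gene of a ficolin, was at 190.3, 221.7 and 149.5 RPKM in JH1 to JH3 and at 76.3, 128.5 and 100.4 RPKM in LD1 to LD3. It was higher in all JH pigs (log2 fold change 0.89, adjusted p = 0.142, limma). MBL2 had a log2 fold change of -2.05, MBL1 of -0.61, COLEC10 of -0.69, COLEC11 of -0.41 and FCN1 of -0.38. All of these but FCN2 overlapped between the breeds (adjusted p between 0.107 and 0.813, limma). The sign of FCN1 is uncertain, with means of 1.963 RPKM in JH and 1.966 RPKM in LD. ITIH2, an inter-alpha-trypsin inhibitor heavy chain, was at 156.6 to 202.1 RPKM in JH and 278.8 to 448.1 RPKM in LD (log2 fold change -1.11, adjusted p = 0.0701, limma), and was called with voom on recovered reads (adjusted p = 0.0397).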
